A study of Mus musculus with 8 samples.

Results

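The chemokine receptor *Cxcr4*, its ligand *Cxcl12* and 8 further chemokine and chemokine receptor genes were examined in RNA sequencing libraries of mouse left ventricles (LVs). The 10 genes were taken by name from the gene table of 46040 genes. They are the receptors *Cxcr4*, *Ackr3*, *Ccr2* and *Cx3cr1* and the ligands *Cxcl12*, *Ccl2*, *Ccl8*, *Cx3cl1*, *Cxcl1* and *Cxcl14*. The set was chosen by name with the log2 fold change of *Cxcr4* between the groups already known. The differences of the 10 genes between the groups are therefore given as a description, and calls on them in this contrast support nothing. All animals were male C57BL/6 mice, 5 to 7 months old, that had received angiotensin II (angII, 0.1 mg/kg/h) by minipump, and LV tissue was taken on day 14 from the surviving mice. VEGFR-1 TK-/- mice lack the intracellular tyrosine kinase domain of the receptor VEGFR-1 (gene *Flt1*) in every cell type, and the other mice were their littermate controls. Each group had 4 libraries, and no group without angII was analysed here, so that the values say nothing on the effect of angII itself.

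The labels contradict each other on the genotype. Genotype tags (wildtype or VEGFR1_TK -/-) match the library names (WT2 or dVEGFR1TK2), but titles give each sample the opposite genotype. Groups here follow the library names, WT2 for wildtype and dVEGFR1TK2 for VEGFR-1 TK-/-. Fold changes are dVEGFR1TK2 relative to WT2, with reversed signs should the titles hold. *Flt1* itself was counted 846 to 1054 times in WT2 libraries and 1680 to 2147 times in those of dVEGFR1TK2. It differed by 1.19 on the log2 scale (SE 0.12), with an FDR of 0.00808 in the edgeR quasi-likelihood test. Whole-gene counts do not separate transcripts with and without the kinase domain, so they do not settle which label is right. The libraries held 11449137 to 16239670 reads on genes. The labels name the tissue as LV, while the library names refer to cardiomyocytes. Cardiomyocyte markers were abundant, the 6 genes *Myh6*, *Tnnt2*, *Actn2*, *Tnni3*, *Myl2* and *Ryr2* summing to between 44624 and 76780 normalized CPM, the read count scaled to a fixed library size after TMM normalization. Markers of endothelium, fibroblasts, mural cells and macrophages were present as well.

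Chemokines are small secreted proteins that guide the movement of cells. They bind membrane receptors, most of which signal through inhibitory G proteins. CXCL12 binds CXCR4, which signals and steers leukocytes and vascular cells, and ACKR3, an atypical receptor that binds and removes the ligand. CCL2 and CCL8 attract leukocytes, CCL2 acting through CCR2, which classical monocytes carry. CX3CL1 is a membrane-bound chemokine of endothelium and neurons, and its receptor CX3CR1 marks resident macrophages and patrolling monocytes. CXCL1 attracts neutrophils, and CXCL14 is made by epithelia and stromal cells. In the heart, CXCL12 comes mainly from stromal and vascular cells.

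The genes differed widely in abundance. Levels between genes were compared as normalized CPM per kilobase (kb) of summed exons, over all 8 libraries. *Ackr3* was the highest with 37.3 ± 17.3 (SD, n = 8) and *Cxcl12* followed with 24.9 ± 2.64 (SD, n = 8) normalized CPM per kb. *Ackr3* exceeded *Cxcl12* in 6 of 8 libraries, and their ranges overlapped. The next step, from *Cxcl12* to *Cxcl14* at 12.4 ± 2.63 (SD, n = 8), was the only one in the order where the ranges of neighbours did not overlap. *Cxcr4* was at 7.45 ± 2.80 (SD, n = 8) and *Cx3cl1* at 6.15 ± 1.49 (SD, n = 8) normalized CPM per kb. *Cxcr4* was above *Cx3cl1* in only 4 of 8 libraries, so that these neighbours did not differ beyond their spread. *Ccl8* was at 4.26 ± 1.92 (SD, n = 8) and *Ccl2* at 2.10 ± 0.814 (SD, n = 8), with *Ccl8* above *Ccl2* in 8 of 8 libraries although the ranges overlapped. By this measure the lowest levels were those of the receptors of monocytes and macrophages and of the neutrophil attractant. The order depends on the summed exons, 6760 bases for *Ccr2* and 1138 for *Ccl2*. Without length, *Ccr2* was above *Ccl2*, with means of 5.45 against 2.55 normalized CPM in WT2 and 5.18 against 2.22 in dVEGFR1TK2 libraries. *Cx3cr1* had 0.907 ± 0.379, *Ccr2* 0.786 ± 0.412 and *Cxcl1* 0.565 ± 0.202 (SD, n = 8) normalized CPM per kb, with overlapping ranges. Thus the transcript of the scavenging receptor *Ackr3* exceeded that of the signaling receptor *Cxcr4*, on average 4.61 ± 1.68 times in the WT2 and 6.02 ± 2.56 times in the dVEGFR1TK2 libraries (SD, n = 4 per group).

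**Figure D1:**
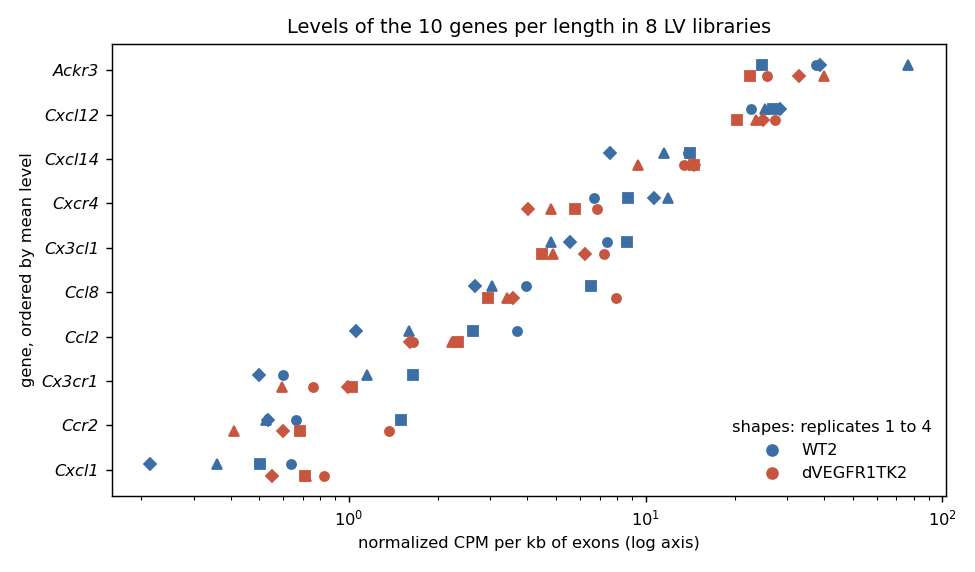
Levels of the 10 genes in normalized CPM per kb of exons, on a log axis, with 1 point per library and genes ordered by their mean over 8 libraries. *Ackr3* and *Cxcl12* lie at the top, with means of 37.3 and 24.9, and *Cx3cr1*, *Ccr2* and *Cxcl1* lie below 1 on average.

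Sequences upstream of the transcription start were available in RefSeq (GRCm38.p6) for 9 of the 10 genes, *Ccl2* having no entry. The 250 bases before the start are shown for *Cxcr4* and its ligand *Cxcl12*, the axis around which the set was built, for *Ccl8*, a gene of the pair that varied most alike between libraries, and for *Cxcl1*, which had the highest log2 fold change of the set. Capitals mark letters of the motifs searched on both strands: GGGCGG (GC box), TATAAA (bound by the TATA-binding protein), ACGTG (core of the hypoxia response element), TGANTCA (AP-1 site), the core of the interferon-stimulated response element and the NF-kB consensus. The windows, on the strand of the gene, are chr1:128592300-128592549 (minus) for *Cxcr4*, chr6:117168285-117168534 (plus) for *Cxcl12*, chr11:82114935-82115184 (plus) for *Ccl8* and chr5:90890995-90891244 (plus) for *Cxcl1*.
Cxcr4: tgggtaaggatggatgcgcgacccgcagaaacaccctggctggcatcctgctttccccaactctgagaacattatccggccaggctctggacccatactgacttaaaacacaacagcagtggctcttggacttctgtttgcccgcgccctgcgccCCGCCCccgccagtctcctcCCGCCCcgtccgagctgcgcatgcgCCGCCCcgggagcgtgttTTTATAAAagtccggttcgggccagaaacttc
Cxcl12: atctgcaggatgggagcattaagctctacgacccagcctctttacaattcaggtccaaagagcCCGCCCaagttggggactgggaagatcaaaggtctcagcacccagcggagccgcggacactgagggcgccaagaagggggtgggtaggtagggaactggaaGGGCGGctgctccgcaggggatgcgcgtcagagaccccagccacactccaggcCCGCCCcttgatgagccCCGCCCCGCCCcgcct
Ccl8: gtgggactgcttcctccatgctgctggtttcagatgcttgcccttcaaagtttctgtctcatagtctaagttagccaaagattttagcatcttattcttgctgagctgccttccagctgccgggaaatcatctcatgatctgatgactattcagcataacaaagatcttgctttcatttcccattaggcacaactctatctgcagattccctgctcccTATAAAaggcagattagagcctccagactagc
Cxcl1: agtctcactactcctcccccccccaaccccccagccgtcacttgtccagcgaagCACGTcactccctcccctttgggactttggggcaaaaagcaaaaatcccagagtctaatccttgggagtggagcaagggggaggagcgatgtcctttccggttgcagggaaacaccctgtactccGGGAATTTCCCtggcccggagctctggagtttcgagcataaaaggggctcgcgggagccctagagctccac
The windows of *Cxcr4* and *Cxcl12* were rich in G and C (61.2% and 64.4%, against a median of 52.4% over 32851 promoters). The GC box occurred in 32.7% of all promoters. *Cxcr4* had 3 GC boxes, beginning 95, 75 and 50 bases before the start, and 2 overlapping TATAAA matches beginning 32 and 30 bases before it. *Cxcl12* had 5 GC boxes and no TATAAA. *Ccl8* had a TATAAA beginning 32 bases before the start, a motif that 12.4% of all promoters held. *Cxcl1* had overlapping matches to the NF-kB consensus, beginning 71 and 70 bases before the start, where 7.25% of all promoters held a match. It also had 1 ACGTG (16.6% of all promoters). TGANTCA (6.75% of all promoters) was in none of the 9 windows, and the core of the interferon-stimulated response element (2.98% of all promoters) was in that of *Cxcl14* only. RefSeq and GENCODE M21 place some starts differently: 233 of the 250 bases of the *Ccr2* window, 171 of that of *Cx3cl1*, 250 of that of *Cx3cr1* and 4 of that of *Cxcl1* lay in exons of the GENCODE model, so that nothing is said of the promoters of the first 3. A match of letters is a description and not a binding site.

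*Cxcr4* (ENSMUSG00000045382, chromosome 1 of GRCm38, 128588199 to 128592293, minus strand) had the lowest log2 fold change of the 10 genes. It reached 12.1, 15.8, 21.6 and 19.4 normalized CPM in WT2 replicates 1 to 4. In dVEGFR1TK2 replicates 1 to 4, it was 12.4, 10.5, 8.69 and 7.25. Of the dVEGFR1TK2 libraries, 3 of 4 lay below every WT2 library, and only replicate 1 of that group reached the range of the WT2 group. The means were 17.2 ± 4.14 and 9.71 ± 2.24 normalized CPM (SD, n = 4 per group), a ratio of 0.564 and a log2 fold change of −0.83 (SE 0.20). Counting error was a small part of this spread: the reads alone would give a coefficient of variation (CV) of 6.51% and 9.21%, against 24.1% and 23.1% between the libraries. The log2 fold change stayed between −0.97 and −0.70 when each library was left out in turn.

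*Cxcl12* (ENSMUSG00000061353, chromosome 6, 117168535 to 117181367, plus strand) was the most even of the genes. Its normalized CPM was 186, 219.9, 207 and 231 in WT2 replicates 1 to 4. It was 222, 166, 193 and 204 in dVEGFR1TK2 replicates 1 to 4. The groups overlapped almost wholly, with only dVEGFR1TK2 replicate 2 below the lowest WT2 library. It changed by −0.10 on the log2 scale (SE 0.11), from means of 211 ± 19.6 and 196 ± 23.6 normalized CPM (SD, n = 4 per group). Its CV was the lowest of the 10 genes in each group, at 9.30% in WT2.

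*Ackr3* (ENSMUSG00000044337, chromosome 1, 90203980 to 90216751, plus strand), the atypical receptor of CXCL12, had a normalized CPM of 125, 82.7, 257 and 129 in WT2 replicates 1 to 4. In dVEGFR1TK2 replicates 1 to 4, it was 85.8, 75.5, 134 and 109.8. The groups overlapped, and WT2 replicate 3 stood well above the other 7 libraries. The log2 fold change was −0.56 (SE 0.29) with all libraries and −0.15 without WT2 replicate 3, so that its size rested on this library.

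The ratio of the ligand to its signaling receptor followed *Cxcr4*. *Cxcl12* over *Cxcr4*, both per kb of exons, was 3.39, 3.07, 2.12 and 2.65 in WT2 replicates 1 to 4. It was 3.95, 3.50, 4.90 and 6.22 in dVEGFR1TK2 replicates 1 to 4. Every dVEGFR1TK2 library was above every WT2 library in this ratio, the means being 2.81 ± 0.55 and 4.65 ± 1.20 (SD, n = 4 per group). Since the ratio contains *Cxcr4*, on which the set was built, it is no separate evidence. *Ackr3* over *Cxcr4* ranged from 2.82 to 6.44 in the WT2 and from 3.73 to 8.31 in the dVEGFR1TK2 libraries, and here the groups overlapped.

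**Figure D2:**
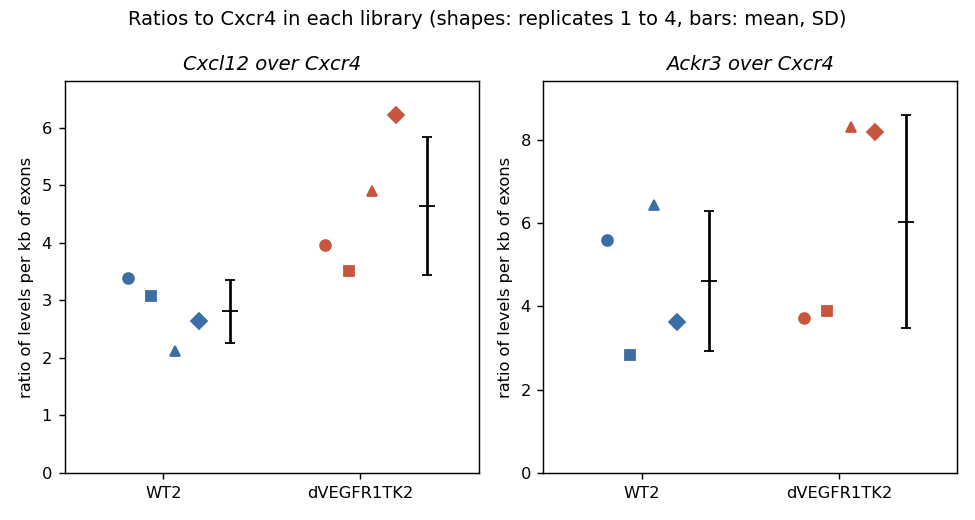
Ratios of *Cxcl12* and *Ackr3* to *Cxcr4* (levels per kb of exons) in each library, with shapes for replicates 1 to 4 and bars for the mean and SD of 4 libraries. *Cxcl12* over *Cxcr4* reached at most 3.39 in the WT2 and at least 3.50 in the dVEGFR1TK2 libraries, while *Ackr3* over *Cxcr4* overlapped.

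The monocyte attractant *Ccl2* (ENSMUSG00000035385, chromosome 11, 82035571 to 82037453, plus strand) was covered by few reads, 15 to 56 per library. Its normalized CPM was 4.19, 2.98, 1.82 and 1.20 in WT2 replicates 1 to 4, and 1.87, 2.66, 2.53 and 1.83 in dVEGFR1TK2 replicates 1 to 4. All dVEGFR1TK2 libraries lay inside the range of the WT2 group. On the log2 scale the difference was −0.20 (SE 0.35) and turned to 0.14 without WT2 replicate 1. *Ccr2* (ENSMUSG00000049103, chromosome 9, 124101950 to 124113557, plus strand), the receptor for CCL2, was at 4.49, 10.2, 3.56 and 3.60 normalized CPM in WT2 replicates 1 to 4, and at 9.26, 4.62, 2.77 and 4.07 in dVEGFR1TK2 replicates 1 to 4. In each group a single library was high, replicate 2 of the WT2 and replicate 1 of the dVEGFR1TK2 group. Its log2 fold change was −0.08 (SE 0.41), and it turned to 0.41 without WT2 replicate 2, to 0.13 without dVEGFR1TK2 replicate 3 and to 0.02 without dVEGFR1TK2 replicate 4. *Ccl8* (ENSMUSG00000009185, chromosome 11, 82115185 to 82116799, plus strand), another attractant of leukocytes, had 17 to 50 reads per library. Its normalized CPM was 2.02, 3.34, 1.55 and 1.36 in WT2 replicates 1 to 4, and 4.06, 1.51, 1.74 and 1.83 in dVEGFR1TK2 replicates 1 to 4. The same 2 libraries that were high in *Ccr2* were high in *Ccl8*. Its log2 fold change was 0.15 (SE 0.38), −0.0041 without WT2 replicate 4, and −0.29 without dVEGFR1TK2 replicate 1.

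*Cx3cl1* (ENSMUSG00000031778, chromosome 8, 94772009 to 94782427, plus strand), the membrane-bound ligand, was at 29.0, 34.0, 18.8 and 21.9 normalized CPM in WT2 replicates 1 to 4, and at 28.4, 17.6, 19.2 and 24.5 in dVEGFR1TK2 replicates 1 to 4. The groups overlapped, and the highest library was again WT2 replicate 2. The log2 fold change was −0.21 (SE 0.20), and it shrank to −0.05 without that library. *Cx3cr1* (ENSMUSG00000052336, chromosome 9, 119901616 to 120069879, minus strand), its receptor, had 28 to 102 reads per library. Its normalized CPM was 2.69, 7.40, 5.18 and 2.24 in WT2 replicates 1 to 4, and 3.41, 4.62, 2.69 and 4.46 in dVEGFR1TK2 replicates 1 to 4. All dVEGFR1TK2 libraries lay within the range of the WT2 group, and the log2 fold change of −0.22 (SE 0.35) turned to 0.15 without WT2 replicate 2. The gene model of *Cx3cr1* shares 78 exon bases with *Gm33858* on the other strand, a gene that the count table does not list, so that reads of the 2 genes could have been mixed if strand was not used in counting. The other 9 genes share no exon bases with another gene of GENCODE M21.

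*Cxcl1* (ENSMUSG00000029380, chromosome 5, 90891241 to 90893115, plus strand), the neutrophil attractant, had the highest log2 fold change of the 10 genes and the fewest reads, 5 to 16 per WT2 and 13 to 19 per dVEGFR1TK2 library. Its normalized CPM was 1.20, 0.944, 0.673 and 0.40 in WT2 replicates 1 to 4, and 1.54, 1.33, 1.34 and 1.04 in dVEGFR1TK2 replicates 1 to 4. Of the dVEGFR1TK2 libraries, 3 of 4 were above every WT2 library, and WT2 replicate 1 was above dVEGFR1TK2 replicate 4. The log2 fold change was 0.70 (SE 0.34), and it ranged from 0.49 to 0.94 when each library was left out in turn. At these counts the reads alone would give a CV of 30.2% in the WT2 and 25.0% in the dVEGFR1TK2 group, against 42.8% and 15.9% between the libraries. *Cxcl1* reached a CPM of 1 in 2 of 4 WT2 and 4 of 4 dVEGFR1TK2 libraries, whereas the other 9 genes did so in all 8 libraries. *Cxcl14* (ENSMUSG00000021508, chromosome 13, 56288643 to 56296551, minus strand), the stromal chemokine, was at 25.5, 25.8, 21.1 and 13.9 normalized CPM in WT2 replicates 1 to 4, and at 24.7, 26.6, 17.2 and 26.5 in dVEGFR1TK2 replicates 1 to 4. The groups overlapped, with WT2 replicate 4 the lowest. On the log2 scale it differed by 0.14 (SE 0.19) and fell to −0.02 without this library.

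**Figure D3:**
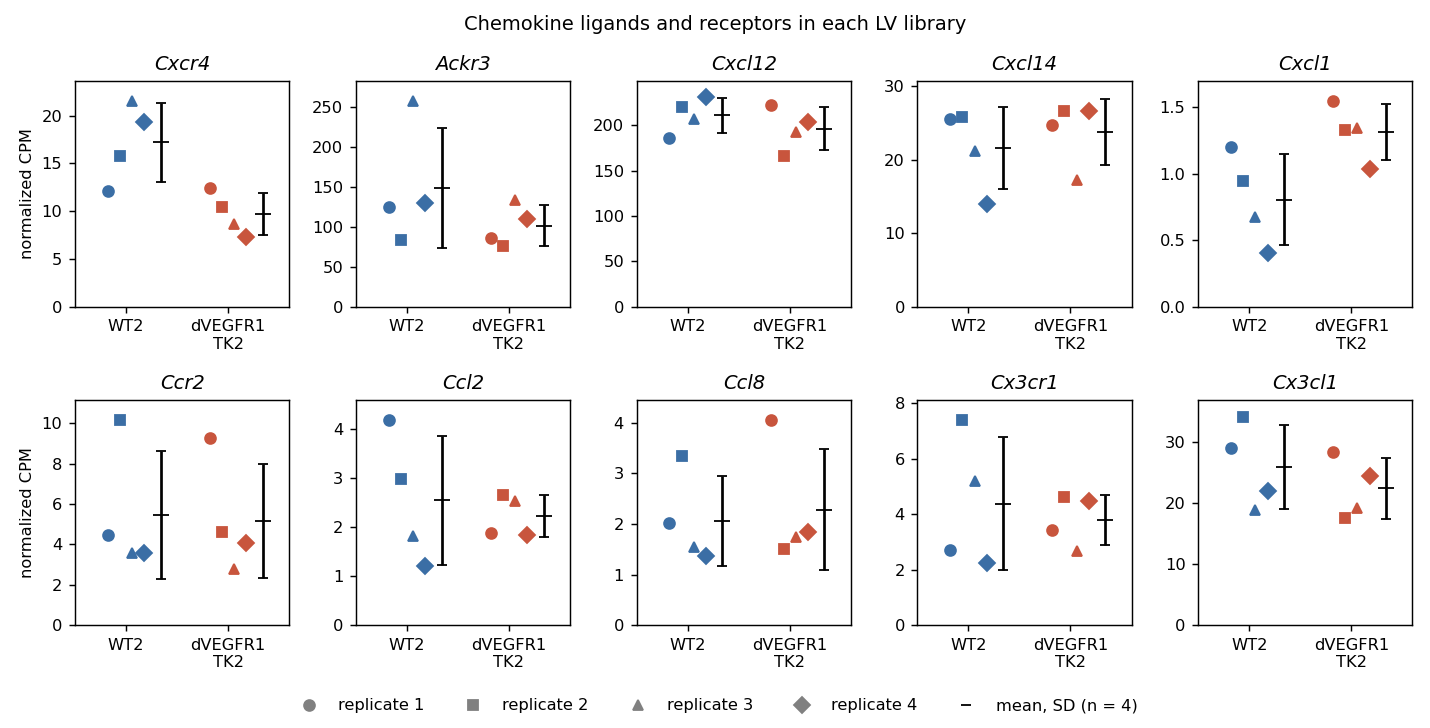
Normalized CPM of each gene in each library, with shapes for replicates 1 to 4 and bars for the mean and SD of 4 libraries per group, each panel on its own axis from 0. The groups overlapped in all 10 genes, with 3 of 4 dVEGFR1TK2 libraries below the WT2 range in *Cxcr4* and 3 of 4 above it in *Cxcl1*.

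Over the 10 genes, 7 had a negative and 3 a positive log2 fold change, with a median of −0.15, and 50.3% of the 13542 genes tested had a negative one, with a median of −0.0012. Of the 10 genes, 2 differed by 1.5-fold or more, *Cxcr4* and *Cxcl1*, as did 3.6% of all genes tested. In 0 of the 10 genes did the groups not overlap, against 4.98% of all genes tested, 2.53% with the dVEGFR1TK2 libraries lower and 2.46% with them higher. Because *Cxcr4* was in the set for its difference in this contrast, the counts of calls among the 10 genes restate that choice and nothing is read from them. Calls required an FDR below 0.1 together with a change of 1.5-fold or more. The quasi-likelihood test of edgeR called 0 of the 10 genes, and 1, *Cxcr4*, had an unadjusted p under 0.05, where 0.00738% of all genes were called and 8.96% had such a p, 5.64% lower and 3.32% higher. The likelihood ratio test, used by the study, called 1 of the 10, *Cxcr4*, and 0.391% of all genes (0.303% as lower), and DESeq2 called *Cxcr4* and 0.236% of all genes (0.192% as lower).

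**Figure D4:**
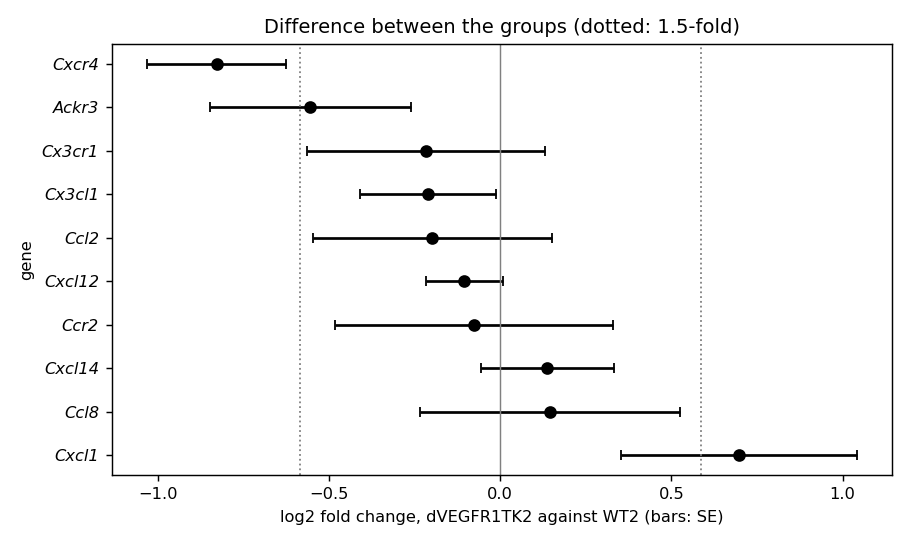
Log2 fold change of each gene, dVEGFR1TK2 against WT2, with bars for the SE derived from edgeR's quasi-likelihood F statistic and dotted lines at a 1.5-fold change. *Cxcr4* lay at −0.83 and *Cxcl1* at 0.70, the other 8 genes lay between −0.56 and 0.15, and all signs reverse if the sample titles are right.

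The other chemokine genes were taken from lists written by family. Of 20 further CC chemokines, 10 passed the filter on low counts, a CPM of 1 or more in 2 or more libraries. Of all genes tested, the quasi-likelihood test called 0.00738%, 8.96% had an unadjusted p under 0.05 and 50.3% were lower. Of the 10 CC chemokines, it called 0, and 0 had such a p. Their median log2 fold change was −0.08, with 7 lower and 3 higher in the dVEGFR1TK2 libraries. *Ccl21a*, an attractant of lymphocytes and dendritic cells, was the most abundant at 47.4 ± 13.1 normalized CPM per kb (SD, n = 8), a level that is uncertain because near-identical copies such as *Ccl21b*, listed at 0, can share its reads. *Ccl6* and *Ccl9*, chemokines of myeloid cells, followed at 11.8 ± 3.41 and 5.06 ± 1.58 (SD, n = 8), each above the level of *Ccl2*. Their log2 fold changes were −0.06 (SE 0.24) and −0.13 (SE 0.25). *Ccl20*, *Ccl21b* and *Ccl26* had no read in any of the 8 libraries.

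Of 13 further CXC and XC chemokines, 5 passed the filter, 4 of them lower in the dVEGFR1TK2 libraries, with a median log2 fold change of −0.37. Of all genes tested, 50.3% were lower, 0.00738% were called by the quasi-likelihood test and 8.96% had an unadjusted p under 0.05. That test called 0 of the 5, and 1 had such a p. This was *Cxcl16*, a membrane-bound ligand of CXCR6, at 25.2 ± 3.90 in the WT2 and 18.0 ± 4.31 normalized CPM in the dVEGFR1TK2 libraries (SD, n = 4 per group). Its log2 fold change was −0.49 (SE 0.17, FDR 0.476 by the quasi-likelihood test). The platelet chemokine *Pf4* was the most abundant of this list at 13.5 ± 3.93 normalized CPM per kb (SD, n = 8), with a log2 fold change of −0.37 (SE 0.23), and *Cxcl9*, induced by interferon, had 3.22 normalized CPM per kb and a log2 fold change of −0.02 (SE 0.27).

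The receptors were scarcely covered. Of 16 further signaling receptors, 5 passed the filter, and the quasi-likelihood test called 0 of them, with 0 at an unadjusted p under 0.05 and a median log2 fold change of −0.04. The most abundant was *Ccr7*, a receptor of lymphocytes and dendritic cells, at 0.533 ± 0.233 normalized CPM per kb (SD, n = 8). All 5 further atypical receptors and related genes passed, 3 of them lower in the dVEGFR1TK2 libraries, and 0 were called. Of all genes tested, 50.3% were lower, 0.00738% were called by the quasi-likelihood test and 8.96% had an unadjusted p under 0.05. *Ackr4*, a scavenger of CCL19 and CCL21, was the 1 gene of this list with an unadjusted p under 0.05, with a normalized CPM of 6.60 ± 1.74 in WT2 and 4.37 ± 1.05 in dVEGFR1TK2 libraries (SD, n = 4 per group). Its log2 fold change was −0.59 (SE 0.24, FDR 0.513 by the quasi-likelihood test). *Ccrl2*, which binds chemerin, was the most abundant of this list at 6.30 ± 2.75 normalized CPM per kb (SD, n = 8), with a log2 fold change of 0.03 (SE 0.33).

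Partners of CXCR4 signaling were a list of 19 genes, and all passed the filter. Against 50.3% of all genes tested, 16 of the 19 were lower in the dVEGFR1TK2 libraries and 3 higher. Their median log2 fold change was −0.21. The quasi-likelihood test called 0 of them, and 4 had an unadjusted p under 0.05, each lower, where 5.64% of all genes were lower with such a p. These were *Gnai2*, an inhibitory G protein subunit, the arrestins *Arrb1* and *Arrb2*, which end receptor signaling, and *Elmo1*, which acts with DOCK proteins on RAC. *Gnai2* was at 417, 432, 605 and 411 normalized CPM in WT2 replicates 1 to 4 and at 365, 326, 355 and 377 in dVEGFR1TK2 replicates 1 to 4. It was the 1 gene of the 19 whose groups did not overlap, where 4.98% of all genes tested did not overlap. *Gnai2* differed by −0.39 on the log2 scale (SE 0.13, quasi-likelihood FDR 0.468), and by −0.45 to −0.24 when each library was left out in turn. The log2 fold changes of *Arrb1*, *Arrb2* and *Elmo1* were −0.33 (SE 0.12), −0.36 (SE 0.14) and −0.36 (SE 0.13), with FDR values of 0.492, 0.521 and 0.476 by the same test. The most abundant partners per kb were *Cd74* and *Mif*, with log2 fold changes of 0.02 (SE 0.25) and −0.21 (SE 0.18). MIF is a cytokine that also engages CXCR4, and CD74 is a receptor of MIF. Of the 73 genes of these lists, 44 passed the filter and were tested. The likelihood ratio test and DESeq2 called 0 of the 44 as well, where they called 0.391% and 0.236% of all genes tested.

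LV tissue mixes cell types, and fewer cells of a type and less RNA per cell cannot be told apart in such libraries. Macrophage and monocyte markers, 11 of 12 of which passed the filter, were lower in the dVEGFR1TK2 libraries in 11 of 11, with a median log2 fold change of −0.30. Their sum was 368 to 436 normalized CPM in the WT2 and 260 to 374 in the dVEGFR1TK2 libraries. Endothelial markers were lower in 5 of 6, with sums of 1288 to 1617 and 1174 to 1303 normalized CPM, and mural markers in 5 of 6, with sums of 1158 to 1595 and 875 to 1186. Fibroblast markers were lower in 6 of 6, with sums of 1055 to 1548 and 567 to 1316 normalized CPM. Cardiomyocyte markers had the opposite sign, higher in 5 of 6 with a median log2 fold change of 0.18 and sums of 44624 to 68494 and 57079 to 76780 normalized CPM, and *Tnni3* alone had an unadjusted p under 0.05. In each of these lists the sums of the groups overlapped, the quasi-likelihood test called 0 genes, and no marker was at 0 in all libraries. Among the non-myocyte lists, 2 macrophage (*Csf1r*, *Cd163*), 3 endothelial (*Pecam1*, *Cdh5*, *Tie1*), 3 mural (*Pdgfrb*, *Rgs5*, *Kcnj8*) and 0 fibroblast markers had an unadjusted p under 0.05, all lower. Of all genes tested, 50.3% were lower and 5.64% were lower with such a p. The groups did not overlap in 2 of 6 mural markers, *Pdgfrb* and *Kcnj8*, and in 4.98% of all genes tested. The likelihood ratio test and DESeq2 each called 1 mural marker, *Kcnj8*, where they called 0.391% and 0.236% of all genes tested. These names were chosen after their values were seen. Set against these sums, *Cxcr4* per 1000 normalized CPM of macrophage markers was 33.0 to 53.0 in the WT2 and 19.4 to 34.3 in the dVEGFR1TK2 libraries, with 1 of 4 dVEGFR1TK2 libraries below the WT2 range. Per 1000 normalized CPM of endothelial markers it was 9.41 to 13.3 and 5.66 to 9.54, with 3 of 4 below the range, as for *Cxcr4* alone. Per 1000 normalized CPM of fibroblast markers it was 9.52 to 20.2 and 5.63 to 15.3, and of mural markers 9.92 to 15.7 and 6.12 to 12.2, with 2 of 4 below the range in each. Per 1000 normalized CPM of cardiomyocyte markers it was 0.199 to 0.355 and 0.113 to 0.200, with 3 of 4 below the range. The part of these markers in the difference of *Cxcr4* was not tested. Like cardiomyocyte markers, those of neutrophils were higher in the dVEGFR1TK2 libraries, in 3 of 3 with a median log2 fold change of 0.16. Atrial markers were higher in 2 of 2. Lymphocyte markers were lower in 2 of 3, red blood cell markers in 5 of 5 and immediate early genes in 4 of 5. Neutrophil markers summed to 6.59 to 10.7 and 6.46 to 13.4 normalized CPM and lymphocyte markers to 4.04 to 4.87 and 3.55 to 5.12. Red blood cell markers ranged from 309 to 766 and from 359 to 601 normalized CPM, immediate early genes from 135 to 160 and from 117 to 160, and atrial markers from 3.68 to 5.69 and from 4.14 to 5.90, in the WT2 and dVEGFR1TK2 libraries.

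The genes also varied between libraries of the same group, a variation described here apart from the difference of the group means. To describe it, the mean of the group was subtracted from each log2 normalized CPM, and Pearson's r was taken over the 8 deviations for the 45 pairs of genes, with no test. *Ccr2* and *Ccl8* were the pair most alike, with r = 0.91, which stayed at 0.84 or above when each library was left out, while Spearman's rho was 0.60. *Cx3cl1* varied with both, with r = 0.86 for *Ccl8* and r = 0.78 for *Ccr2*. Their largest upward deviations were in WT2 replicate 2 (*Ccr2* 1.02, *Ccl8* 0.73, *Cx3cl1* 0.43) and dVEGFR1TK2 replicate 1 (0.96, 0.90 and 0.36). Leaving out 1 of these libraries kept the other, so the leave-one-out values do not show how far the likeness rests on them. *Ccl2* and *Cxcl1*, attractants of monocytes and neutrophils, formed another pair with r = 0.90, at least 0.77 when each library was left out. Both had few reads, 15 to 56 for *Ccl2* and 5 to 19 for *Cxcl1* per library. In the dVEGFR1TK2 group the CV of *Cxcl1* (15.9%) was below that from counting alone (25.0%), so its deviations there cannot be told from counting error. *Ccl2* was hardly alike with its own receptor *Ccr2*, with r = 0.20. The lowest value was that of *Ackr3* and *Ccr2* with r = −0.71, at most −0.50 when each library was left out. *Cxcr4* varied little with the ligand *Cxcl12* (r = 0.35) or with *Ackr3* (r = 0.17), and its lowest value was with *Ccl2* (r = −0.59). The summed markers of cardiomyocytes had r = 0.79 with *Ackr3* and r = −0.78 with *Ccr2*, and those of fibroblasts r = −0.50 and r = 0.77. *Cx3cl1*, *Cxcl14* and *Ccl8* went the same way as *Ccr2*, with r = −0.73, −0.61 and −0.58 for cardiomyocyte markers. For fibroblast markers they had r = 0.75, 0.69 and 0.65, while *Cxcr4* had r = 0.24 and −0.08 with the 2 lists. Macrophage and monocyte markers had r = −0.25 with *Ackr3* and r = 0.66 with *Ccr2*. All these values share the same 8 libraries and their normalization.

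**Figure D5:**
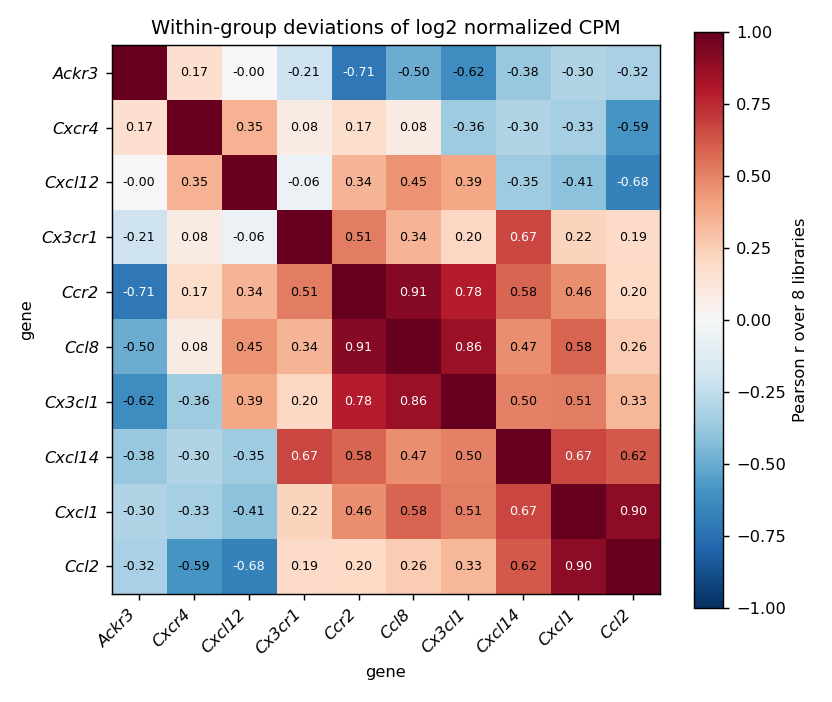
Pearson's r between the deviations of log2 normalized CPM from the group mean over 8 libraries, for each pair of the 10 genes, from −1 (blue) to 1 (red). *Ccr2*, *Ccl8* and *Cx3cl1* form a red block with values from 0.78 to 0.91, *Ccl2* and *Cxcl1* another with 0.90, and *Ackr3* is blue against *Ccr2* with −0.71. Each gene of the first block was highest in replicate 2 of the WT2 and replicate 1 of the dVEGFR1TK2 group, and *Ccl2* and *Cxcl1* had few reads.

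By the same measure, each gene was compared with the genes tested that had a mean of at least 5 normalized CPM, 10405 of them for *Cxcr4*. The 5 genes most like *Cxcr4* were *R3hcc1l* (r = 0.97), *Flt3l*, the ligand of the receptor FLT3 on blood cell progenitors (r = 0.94), *Smyd4* (r = 0.93), *Pan2*, a subunit of an mRNA deadenylase (r = 0.92), and *Pik3r6*, a regulatory subunit of PI3K gamma (r = 0.92). The order rests on 8 points, and at most 2 of the 5 stayed among the nearest 5 when a library was left out. For *Ackr3*, the nearest genes were *Npr1*, a receptor of natriuretic peptides (r = 1.00), *Cog7* (r = 0.99) and *Prmt1* (r = 0.99). For *Ccl8* they were *Gbp7*, *Cyba* and *Samhd1* (r = 0.99, 0.99 and 0.98), and for *Ccr2* they were *Arfip2*, *Prnp* and *Ifit3* (r = 0.99, 0.98 and 0.98). Of these, *Gbp7*, *Samhd1* and *Ifit3* are known as genes induced by interferon, and *Cyba*, *Arfip2* and *Prnp* are not named for it here. A gene named for interferon, *Ifi27l2a*, was also among those nearest to *Cx3cr1*, so the trait was not particular to *Ccl8* and *Ccr2*. Whether such genes are more frequent among the nearest than among all genes compared was not tested. The nearest genes were picked as the highest of 10405 or 10406 over 8 points, so that high r can arise from the picking alone. Whether they stayed nearest when a library was left out was counted for *Cxcr4* only. For *Cx3cr1* the nearest were *Naif1*, *Ifi27l2a* and *Xylt2* (r = 0.98, 0.98 and 0.97), for *Cx3cl1* *D17H6S53E*, *Trps1* and *Sec61b* (r = 0.99, 0.98 and 0.98), and for *Cxcl12* *Rftn2*, *Srek1* and *Tbp* (r = 0.98, 0.97 and 0.96). For *Cxcl14* they were *Slit3*, *Lmnb2* and *Mpdu1* (r = 0.98, 0.98 and 0.94), for *Ccl2* *9130401M01Rik*, *Dph2* and *Loh12cr1* (r = 0.96, 0.95 and 0.95), and for *Cxcl1* *Ky*, *Prorsd1* and *Orc5* (r = 0.99, 0.96 and 0.94).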

How the data were processed

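RNA of 8 LV libraries was sequenced. Reads were processed by the authors with Trim Galore 0.4.4, STAR 2.5.4b (GRCm38) and featureCounts on GENCODE M16, and the deposited values are raw counts of each gene. Strand and reads with several alignments are not given in the sources used here for the counting. The labels describe depletion of ribosomal RNA and the study methods describe poly-A selection with a stranded kit.

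The filter kept 13542 genes (CPM of 1 or more in 2 or more libraries), which were normalized with TMM and tested with the quasi-likelihood test of edgeR 4.0.16 (R 4.3.3, no covariates, Benjamini-Hochberg FDR over all genes). Log2 CPM used a prior count of 2. Each SE is the absolute log2 fold change divided by the square root of the quasi-likelihood F statistic. Exon lengths and coordinates came from GENCODE M21 (GRCm38), matched by gene ID. DESeq2 1.42.0, the likelihood ratio test, other normalizations and filters, a replicate block and each library left out were alternatives. The test was checked on simulated counts. Members and lists were chosen with earlier results of these data known. Genes named were the 10 members, *Flt1*, list genes with an unadjusted p under 0.05, abundant list genes and those most like a member. Libraries held 11449137 to 16239670 reads on genes. No label says that each library is a separate animal, so p-values cover the spread between these samples.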

Additional observations from a re-analysis of the deposited data

How the results depend on the processing

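The directions of *Cxcr4*, *Cxcl12*, *Ackr3*, *Cx3cl1* and *Cxcl1* did not turn under any of 15 other settings. In the 150 values of the 10 genes under these settings, the sign turned 8 times, all in the other 5 genes and each on leaving out a library, and their absolute log2 fold changes were at most 0.22 with all libraries. The number of genes called rose from 1 to 53 with the likelihood ratio test, 32 with DESeq2 and 23 with no filter on low counts, and these fits called 1 of the 10 genes, *Cxcr4*, for which the set was chosen. Leaving out each library gave 1 to 3 called genes, with 2 without WT2 replicate 1 and 3 without WT2 replicate 2 or 4, and 0 of the 10. Of the 73 other genes of the chemokine lists, 42 to 44 were tested under the filtered alternatives and 70 with no filter, and 0 were called under any of 16 alternatives. Of the 5 genes most like *Cxcr4*, 2 stayed among the nearest 5 by Spearman's rho and 0 to 2 on leaving out each library. Replicate numbers did not pair the libraries: deviations from the group means correlated between libraries of the same number with r = −0.03, 0.03, 0.34 and −0.06, highest with the same number in 1 of 4. With the replicate block 1 gene was called, *Cxcr4* had a log2 fold change of −0.82 and *Ackr3* −0.47. Counting error limits *Cxcl1*, *Ccl8* and *Ccl2*, with at most 56 reads in any library.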
